A study of Mus musculus with 12 samples.

Results

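Cxcr7, the scavenger receptor now called Ackr3, was followed across the thyroid hormone series together with its ligand Cxcl12 and with Cxcr4, the signalling receptor for the same ligand. The genes were taken by symbol, and 2 of the 3, Cxcr7 and Cxcl12, had a row among the 12774 gene symbols of the table. Cxcr4 is not analysed here. They were chosen by their RPM with T3 against untreated in these same libraries, so their hormone response is described without a test, and tests are kept for the lines, the times and the untreated cells. The tests of the response between lines or times compare those same T3 differences, so they are not independent of the choice.

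Cxcl12 is a secreted chemokine that guides migrating cells, among them neural progenitors and interneurons of the developing brain. Through Cxcr4 it activates inhibitory G proteins, whereas Cxcr7 binds the same ligand, recruits arrestin and carries it into the cell for degradation without classical G protein signalling. By removing ligand, Cxcr7 shapes the gradient that Cxcr4-bearing cells read. T3 (triiodothyronine) is the active thyroid hormone, and its nuclear receptors are transcription factors.

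The cells were C17.2, an immortalised mouse neural progenitor line, in 2 stable derivatives: C17.2b, with a tagged thyroid hormone receptor beta, and C17.2a, with a tagged receptor alpha. Each line received T3 at 1e-07 M or was left untreated for 6, 12 or 24 h, always after 24 h in serum-free medium, which gives 6 T3 and 6 untreated libraries of messenger RNA tags. The study asked which genes respond to T3 over time in each line. Every library came from cells that carry a transfected receptor, no line without one is included here, and the labels say neither what drives the transgene nor whether a line is 1 clone.

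Each combination of line, time and treatment had 1 library, so each T3 library is set against the untreated one of its own line and time, and these 6 pairs serve as the repeats, and no label says that they came from separate cultures. Levels are in RPM (a gene's share of the sequence tags, put on the same fixed total in every library), and the implied depth was between 7.1e+06 and 1.9e+07 tags. A count of 3 tags corresponds to 0.158 to 0.422 RPM. The 24 h libraries stood apart from the earlier ones on the first principal component (52.8% of the variance), and on the second the C17.2a library with T3 at 24 h lay at 66.5, against -23.8 to 13.1 for the other 11. Of 10 progenitor markers 8 were in the table, and Pax6 and Hes5 were not. Their summed level was 1387 to 3119 RPM in T3 libraries against 2355 to 5799 RPM in untreated libraries. Most of it came from Vim, at 1112 to 2619 RPM with T3 and 1928 to 4941 RPM untreated. Nes was at 70.2 to 286 RPM with T3 and 110 to 642 RPM untreated, and Sox2 at 62.0 to 108 RPM with T3 and 104 to 306 RPM untreated. Notch1 was at 20.28 to 40.79 RPM with T3 and 43.53 to 74.47 RPM untreated. The markers did not all go this way. The highest value with T3 was above the highest untreated value for Hes1 (48.11 against 46.72 RPM) and Msi1 (4.35 against 2.86 RPM). The ranges of Fabp7 and Prom1 overlapped. All 5 fibroblast and mural markers were also in the table, with sums of 1369 to 7420 RPM with T3 and 1458 to 4922 RPM untreated, mostly from collagen genes, while Thy1 was at 0 to 0.14 RPM with T3 and 0 to 0.41 RPM untreated. The neuron marker Tubb3 was at 44.5 to 576 RPM with T3 and 69.9 to 312 RPM untreated, and the oligodendrocyte lineage marker Sox10 at 135 to 759 RPM with T3 and 217 to 746 RPM untreated. Of the 5 microglia and blood cell markers, 1 had a row, at 0 to 0.18 RPM with T3 and 0 to 0.42 RPM untreated. The part of these marker levels in the values of Cxcr7 and Cxcl12 was not tested.

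The promoters of both genes are shown because only 1 of the genes stood far apart with T3. The RefSeq windows run from 250 bases before the start to 50 after it, on build GRCm38.p6, which is not the mm9 build that the submitters' processing notes name. The Cxcr7 window is chr1:90203730-90204029 on the plus strand, and the Cxcl12 window is chr6:117168285-117168584 on the plus strand. Capitals mark GCGTG, a core of the hypoxia response element.

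Cxcr7: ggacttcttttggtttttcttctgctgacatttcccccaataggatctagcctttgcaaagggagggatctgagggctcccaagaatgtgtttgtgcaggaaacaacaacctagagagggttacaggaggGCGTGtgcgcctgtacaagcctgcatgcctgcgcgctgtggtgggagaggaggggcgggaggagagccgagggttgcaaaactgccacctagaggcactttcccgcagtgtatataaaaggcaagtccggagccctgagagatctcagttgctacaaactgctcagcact

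Cxcl12: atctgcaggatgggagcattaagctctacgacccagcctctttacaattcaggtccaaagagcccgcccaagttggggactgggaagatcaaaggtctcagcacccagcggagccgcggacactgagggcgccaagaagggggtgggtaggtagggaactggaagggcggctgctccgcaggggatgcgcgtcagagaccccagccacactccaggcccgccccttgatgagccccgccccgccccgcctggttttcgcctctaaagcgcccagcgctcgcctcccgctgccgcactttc

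The letters of 3 motifs were searched on both strands: AGGTCA, the thyroid hormone receptor half-site, and the hypoxia element cores ACGTG and GCGTG. The Cxcr7 window held GCGTG once, 120 bases upstream of the start on the plus strand, and held neither of the other motifs. The Cxcl12 window held none of the 3. Among 32851 RefSeq promoter windows of the same length, 32.4% held GCGTG, 19.6% held ACGTG and 16.3% held AGGTCA, so the single match in Cxcr7 is of a common kind. The Cxcr7 window was 54% G or C and the Cxcl12 window 64.7%, beside a median of 52.7% for all windows.

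Cxcr7 RNA was many times higher with T3 in both lines and at every time, and the excess was larger at 24 h than at 6 h. In C17.2b, Cxcr7 was at 33.52, 65.71 and 107.37 RPM after 6, 12 and 24 h of T3, against 7.86, 5.92 and 6.78 RPM in the untreated libraries. In C17.2a, it was at 74.84, 78.63 and 168.66 RPM after 6, 12 and 24 h of T3, against 9.82, 6.31 and 7.55 RPM untreated. Every T3 library lay above every untreated library, and the lowest T3 value, C17.2b at 6 h, was still over 3 times the highest untreated value, C17.2a at 6 h. Such a gap between all T3 and all untreated libraries was found for 155 of 10577 genes (1.47%), and nothing is read from it for a gene chosen for this response. In bulk RNA, more cells with the transcript and more transcript per cell cannot be told apart.

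The mean level of Cxcr7 was 88.1 ± 46.1 RPM with T3 and 7.37 ± 1.4 RPM untreated (SD over lines and times, n = 6 each). The spread among the T3 libraries thus came from a range of 33.52 to 168.66 RPM, while the untreated libraries stayed within 5.92 to 9.82 RPM. From lowest to highest, the T3 libraries were C17.2b at 6 h, C17.2b at 12 h, C17.2a at 6 h, C17.2a at 12 h, C17.2b at 24 h and C17.2a at 24 h. The 95% Poisson intervals on implied tags, which cover counting error only, were 61.1 to 70.6 RPM for C17.2b at 12 h, 69.6 to 80.4 RPM for C17.2a at 6 h and 74.1 to 83.4 RPM for C17.2a at 12 h, so each of these 3 overlapped its neighbour in the order. The lowest T3 library had 29.9 to 37.5 RPM, and the highest pair were separate, at 99.9 to 115 RPM for C17.2b at 24 h and 160 to 178 RPM for C17.2a at 24 h. Among the 6 untreated libraries, the interval of the highest, 8.21 to 11.7 RPM for C17.2a at 6 h, lay above the intervals of both 12 h libraries, 4.54 to 7.50 RPM for C17.2b and 4.94 to 7.98 RPM for C17.2a.

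**Figure D1:**
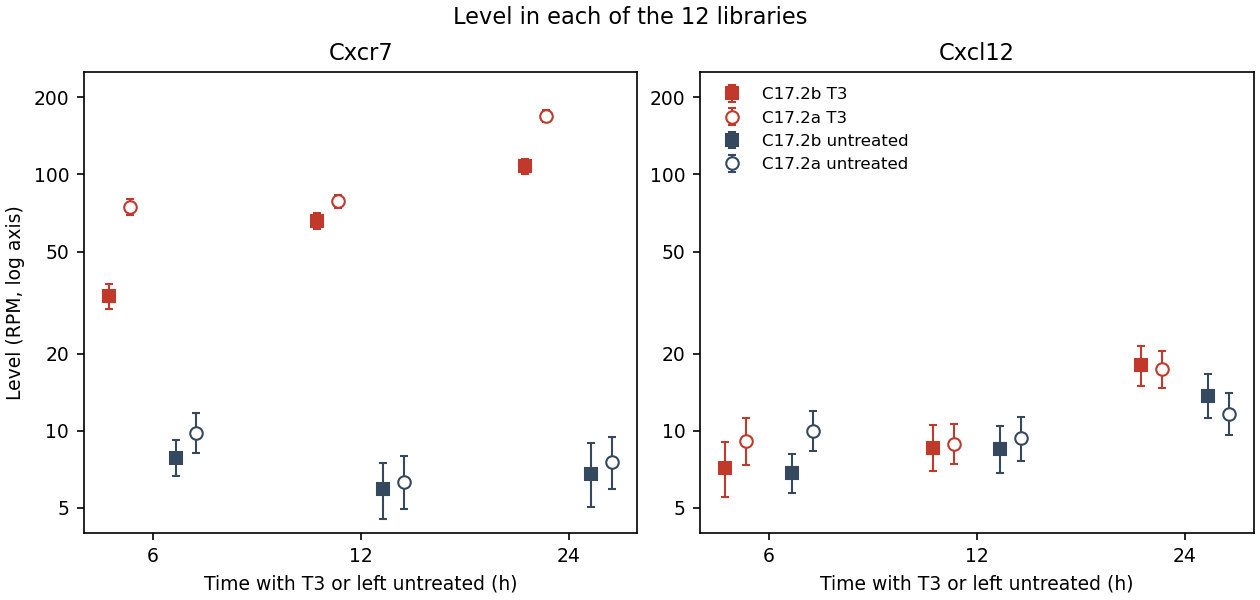
Level of Cxcr7 (left) and Cxcl12 (right) in RPM on a log axis against time in hours, with squares for C17.2b, circles for C17.2a, red for T3 and dark blue for untreated. Each point is 1 library and the bars are 95% Poisson intervals on implied tags: all T3 points of Cxcr7, from 33.52 RPM, lie above all of its untreated points, up to 9.82 RPM, while the points of Cxcl12 overlap between 6.84 and 17.99 RPM.

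Set against the untreated library of the same line and time, the RPM ratio of Cxcr7 in C17.2b was 4.26 at 6 h (95% interval 3.49 to 5.21, from implied tags), 11.1 at 12 h (8.66 to 14.6) and 15.8 at 24 h (11.9 to 21.5). In C17.2a, the ratio was 7.62 at 6 h (6.29 to 9.25), 12.5 at 12 h (9.77 to 16) and 22.3 at 24 h (17.6 to 28.6). At each time the ratio was larger in C17.2a, with intervals that were separate at 6 h and overlapped at 12 and 24 h. On the log2(RPM + 1) scale, which understates changes from low levels, the difference was 3.27 ± 0.81 (SD over 6 pairs), and it was 3.01 ± 0.95 in C17.2b and 3.52 ± 0.75 in C17.2a (n = 3 pairs each). This difference had rank 6 from the top among 10577 genes, and in single pairs its rank was 43, 11 and 6 in C17.2b and 7, 7 and 1 in C17.2a at 6, 12 and 24 h.

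The 2 arms moved unequally over time. Between 24 h and 6 h the level of Cxcr7 with T3 differed by a ratio of 3.2 in C17.2b and 2.25 in C17.2a, and in untreated cells by 0.863 in C17.2b and 0.769 in C17.2a. These are ratios of RPM, and median-ratio scaling, which divides each library by a factor, would lower all 4. For T3 libraries of C17.2b and C17.2a the factors were 1.28 and 1.15 at 24 h against 0.916 and 0.915 at 6 h. For untreated libraries they were 1.20 and 1.30 against 0.872 and 0.957. By 12 h the T3 level of C17.2b was 1.96 times that at 6 h, whereas that of C17.2a was 1.05 times. The lines were thus closest under T3 at 12 h, where C17.2b stood at 0.836 of C17.2a, compared with 0.448 at 6 h and 0.637 at 24 h.

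Cxcl12, the ligand, differed between T3 and untreated by less than counting error at 6 and 12 h, and was higher with T3 at 24 h. In C17.2b, Cxcl12 was at 7.13, 8.59 and 17.99 RPM after 6, 12 and 24 h of T3, against 6.84, 8.52 and 13.7 RPM untreated. In C17.2a, it was at 9.14, 8.92 and 17.47 RPM after 6, 12 and 24 h of T3, against 9.97, 9.39 and 11.64 RPM untreated. The groups overlapped, and both 24 h T3 libraries were the highest of the 12. The mean was 11.5 ± 4.85 RPM with T3 and 10 ± 2.41 RPM untreated (SD, n = 6 each).

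The Cxcl12 ratio in C17.2b was 1.04 at 6 h (0.766 to 1.41), 1.01 at 12 h (0.754 to 1.36) and 1.31 at 24 h (1.0 to 1.72). In C17.2a it was 0.917 at 6 h (0.692 to 1.20), 0.95 at 12 h (0.730 to 1.25) and 1.5 at 24 h (1.16 to 1.93). With 67 to 146 implied tags of Cxcl12 in a library, a difference at 6 or 12 h of the size seen at 24 h in C17.2b lies inside the intervals of C17.2b, so it was not detectable there at this depth. On the log2 scale the mean difference was 0.13 ± 0.26 (SD, 6 pairs, 4 of 6 higher with T3), and over the pair of 24 h values it was 0.46 ± 0.13. Of all genes, 25.5% were higher with T3 in both 24 h pairs. A log2 ratio at least as high as that of Cxcl12 was found for 20.2% in the C17.2b 24 h pair and 17.8% in the C17.2a 24 h pair, and for 4.77% in both. These cut-offs are the values of Cxcl12 itself, at a time picked after they were seen, so the shares are a description and no test. Ratios were also more widely spread in the C17.2a 24 h pair, with an SD over genes of 0.94 on the log2 scale against 0.41 to 0.54 in the other pairs.

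**Figure D2:**
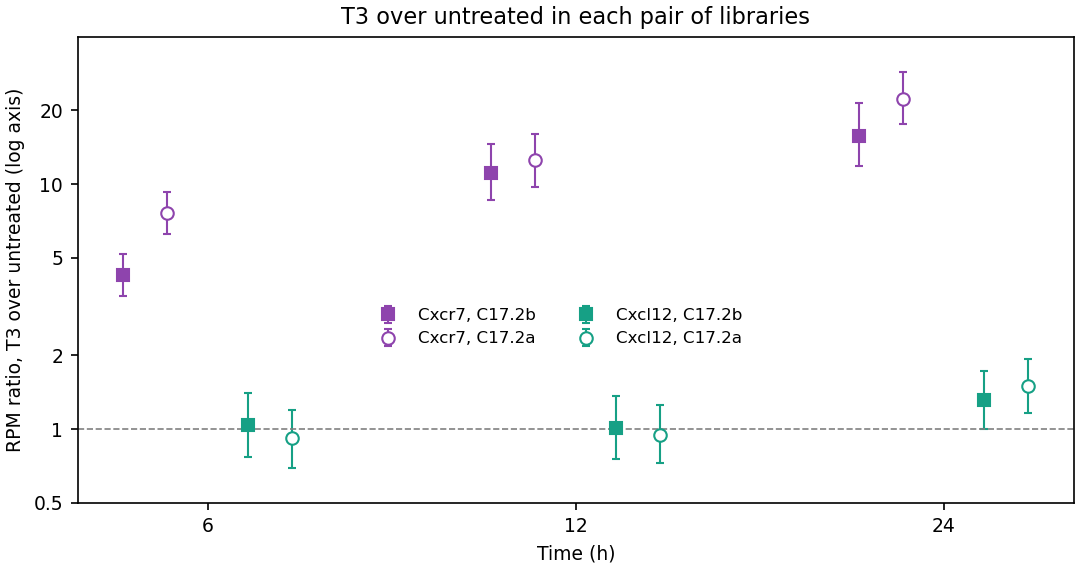
RPM ratio of T3 over untreated on a log axis against time in hours for Cxcr7 (purple) and Cxcl12 (green), with squares for C17.2b and circles for C17.2a. Each point is 1 pair of libraries, the bars are 95% intervals from implied tags and the dashed line marks a ratio of 1: Cxcr7 lies between 4.26 and 22.3, and Cxcl12 between 0.917 and 1.5.

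Whether the response differs between the lines was tested with limma as the difference of the T3 effects, C17.2b minus C17.2a. Each receptor is in 1 line, so receptor and line cannot be told apart. For Cxcr7 the difference was -0.51 ± 0.52 (log2, SE; 95% interval -1.72 to 0.69), which did not pass (limma adjusted p = 0.758). The median gene was at 0.12 in this contrast, and relative to it Cxcr7 was at -0.64. Without the C17.2b 6 h pair the Cxcr7 difference was 0.01, so its sign rests on that pair. For Cxcl12 the difference was 0.02 ± 0.28 (95% interval -0.61 to 0.66, limma adjusted p = 0.983). No gene passed in limma (0 of 10577, 0%), where 583 had an unadjusted p under 0.05, so these data do not separate the lines for either gene, nor show that they respond alike.

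The change of the T3 effect with time was larger for Cxcr7. Between 24 h and 6 h its T3 effect differed by 1.67 ± 0.37 (log2, SE; 95% interval 0.79 to 2.55), with rank 16 of 10577 and an unadjusted p of 0.00290 in limma, and it did not pass after adjustment (limma adjusted p = 0.726). The difference was in the same direction in both lines. It is built from the T3 differences by which the gene was chosen, so its rank and p are no independent support. Here too no gene passed in limma (0 of 10577, 0%), while 593 had an unadjusted p under 0.05. Leaving out the C17.2b 24 h pair gave 1.92 for Cxcr7, in a fit where the lone 24 h pair was taken to vary like the others. Between 12 h and 6 h the Cxcr7 difference was 0.97 ± 0.37 (limma adjusted p = 1.0), with 0 genes passing (0%) and 86 at an unadjusted p under 0.05. Cxcl12 differed by 0.49 ± 0.30 between 24 h and 6 h (95% interval -0.23 to 1.21, limma adjusted p = 0.726) and by 0.00 ± 0.30 between 12 h and 6 h (limma adjusted p = 1.0).

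Without hormone, neither gene differed between the lines past the test. Cxcr7 was at 7.86, 5.92 and 6.78 RPM in C17.2b and at 9.82, 6.31 and 7.55 RPM in C17.2a at 6, 12 and 24 h, so C17.2b was lower at each time. The difference, C17.2b minus C17.2a, was -0.17 ± 0.18 (log2, SE; 95% interval -0.56 to 0.23, limma adjusted p = 0.635). For Cxcl12 it was -0.13 ± 0.19 (95% interval -0.56 to 0.29, limma adjusted p = 0.743), with C17.2b lower at 6 and 12 h and higher at 24 h. Neither gene was among the 902 of 10192 that passed in this contrast (8.85%; 2.93% higher and 5.92% lower in C17.2b), a count that was 439 without the untreated C17.2b 6 h library and 412 without the untreated C17.2a 6 h library. Without either of these libraries the Cxcl12 difference was 0.05.

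Over time in serum-free medium neither gene passed the test, and the difference between the genes was not tested. Untreated Cxcl12 at 24 h was 2.0 times its 6 h level in C17.2b and 1.17 times in C17.2a, while untreated Cxcr7 was at 0.863 and 0.769 of its 6 h level in C17.2b and C17.2a. The difference of 24 h minus 6 h was 0.56 ± 0.23 for Cxcl12 (95% interval 0.04 to 1.08, limma adjusted p = 0.0655) and -0.26 ± 0.22 for Cxcr7 (95% interval -0.75 to 0.22, limma adjusted p = 0.325). This contrast moved much of the table: 5720 of 10192 genes passed (56.1%), 4384 higher (43%) and 1336 lower (13.1%) at 24 h, and the median gene was at 0.40. With median-ratio scaling, which shifts this contrast by -0.40, 2570 were higher and 2617 lower. Relative to the median gene Cxcl12 was at 0.16 and Cxcr7 at -0.66, and with median-ratio scaling Cxcr7 passed at -0.66 (limma adjusted p = 0.023) whereas Cxcl12 was at 0.14 (limma adjusted p = 0.618). Without the untreated C17.2a 24 h library Cxcl12 passed at 0.82 (limma adjusted p = 0.0232).

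Between 12 h and 6 h in untreated cells, Cxcr7 differed by -0.46 ± 0.22 (limma adjusted p = 0.819) and Cxcl12 by 0.10 ± 0.23 (limma adjusted p = 0.959). In limma 0 of 10192 genes passed (0%), with 628 at an unadjusted p under 0.05. Leaving out 1 untreated library gave up to 148 genes, the most without the C17.2b 24 h library, and without the untreated C17.2b 6 h library Cxcl12 was at -0.16.

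The other genes of the chemokine axis were counted in the T3 response shared by all 6 pairs. Their 10 lists hold 217 symbols, of which 164 were in the table and 136 were tested. In limma, 8 rose and 5 fell with T3 (13 of 136), beside 682 of 10577 genes overall (6.45%; 4.09% higher and 2.35% lower), and the median log2 fold change was -0.03 against -0.01 for all genes. Of the 136, Ccrl2 and Mmp9 reached 1 RPM in T3 libraries only and so entered through the arm where they are high. Of the other 134, 7 rose and 5 fell. Among the 5 is Rgs14, which met the filter of 3 libraries only with its untreated libraries. The share over all genes was not recounted without genes that entered through 1 arm, so it is not like for like with the 134. Without the C17.2a 24 h pair, the count was 29 in these lists and 1554 overall. Without the C17.2b 6 h, C17.2b 12 h, C17.2a 6 h or C17.2a 12 h pair it was 8, 5, 8 or 7, and without the C17.2b 24 h pair it was 9. Rgs16, Elmo2 and Pik3cd passed under all 12 alternatives. Without the pair as a block, the calls of Cxcl14, Sdc3, Arrb1, Adcy9, Rgs14, Map2k1 and Tiam1 were lost at the same fold changes (limma adjusted p = 0.0646 to 1.0).

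Among the other ligands and receptors, 1 ligand fell. Of 38 other chemokine ligands 15 were in the table and 8 were tested, with a median of -0.26. Cxcl14, a chemokine of epithelia and brain, fell by 0.74 (log2; SE 0.15, limma adjusted p = 0.0191) and was low throughout, at 0.24 to 2.13 RPM with T3 and 0.71 to 6.1 RPM untreated. Leaving out any of the 3 C17.2b pairs, or C17.2a at 12 h, ended its call (log2 fold change -0.74 to -0.66, limma adjusted p = 0.0662 to 0.0824). Over all 11 alternatives the call of Cxcl14 was lost in 6, and its fold change was -0.92 to -0.32 (limma adjusted p = 0.00394 to 0.311). Of 22 other chemokine receptors 3 were tested, with a median of 0.18. Ccrl2, a nonsignalling receptor that binds chemerin, was at 0.74 to 6.73 RPM with T3 and 0 to 0.41 RPM untreated, with 0 in 3 of 6 untreated libraries. It passed the filter through T3 libraries alone, so its call in limma is no support for a difference, and its fitted change was 0.56 to 2.20 (log2) over the alternatives. Among the 3 tested genes for other ligands of the receptors and their partners none passed. Cd74, a receptor for the cytokine Mif, was at 0.54 (limma adjusted p = 0.123) and Ramp1, a partner in the receptor for CGRP, at 0.30 (limma adjusted p = 0.587).

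Genes that act on Cxcl12 outside the cell gave 1 call. Of 3 tested proteases that cut Cxcl12 none passed, with Mmp9 at 0.91 (limma adjusted p = 0.133; 0.11 to 4.77 RPM with T3 and 0 to 0.2 RPM untreated) and Mmp14 at -1.06 (limma adjusted p = 0.342). Mmp14, a membrane-bound metalloprotease, was at 6.2 to 98.26 RPM with T3 and 18.91 to 152.8 RPM untreated, and the lowest T3 value was that of the C17.2a 24 h library. Of 20 tested heparan sulfate proteoglycans and their enzymes, which hold chemokines at the cell surface, 1 rose, and the median was 0.01. This was Sdc3, the syndecan of neural cells, at 44.37 to 525.92 RPM with T3 and 26.08 to 259.77 RPM untreated, a rise of 1.09 (SE 0.12, limma adjusted p = 0.00134). Without the pair as a block its fold change was the same and its call was lost (limma adjusted p = 0.95).

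The machinery of receptor uptake gave 1 call. Of 7 arrestins and receptor kinases 1 rose, with a median of -0.16. Arrb1, the beta-arrestin 1 that binds phosphorylated receptors, rose by 1.22 (SE 0.26, limma adjusted p = 0.0250), at 2.5 to 13.74 RPM with T3 and 1.01 to 3.06 RPM untreated. It was higher with T3 in 5 of 6 pairs and at -0.21 in the C17.2a 24 h pair. Its call was lost without any 1 of the other 5 pairs (1.04 to 1.22, limma adjusted p = 0.0826 to 0.0945). None of the 22 genes of receptor endocytosis and sorting passed, with a median of -0.06, Itch, a ubiquitin ligase, at the top at 0.24 (limma adjusted p = 0.392) and Ap2a1, a clathrin adaptor subunit, at the bottom at -0.59 (limma adjusted p = 0.568).

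Genes that carry the signal of Cxcr4 gave the remaining calls. Of 22 G protein subunits and effectors 2 rose and 1 fell, with a median of 0.05. The inhibitory alpha subunit Gnai1 rose by 0.83 (SE 0.16, limma adjusted p = 0.0156) and the adenylyl cyclase Adcy9 rose by 1.14 (SE 0.21, limma adjusted p = 0.0119), while the beta subunit Gnb4 fell by 0.95 (SE 0.17, limma adjusted p = 0.0127). Gnb4 was at 5.4 to 14.07 RPM with T3 and 13.97 to 21.03 RPM untreated. Without the C17.2b 12 h pair none of these 3 calls held, at 0.74 for Gnai1, 1.12 for Adcy9 and -0.88 for Gnb4 (limma adjusted p = 0.0719, 0.0571 and 0.0630). That of Adcy9 was also lost without the pair as a block (limma adjusted p = 0.0999). The call of Gnb4 was also lost without the C17.2a 6 h pair (-0.88, limma adjusted p = 0.0547), and that of Gnai1 without the C17.2b 6 h, C17.2b 24 h or C17.2a 12 h pair (0.79 to 0.84, limma adjusted p = 0.0548 to 0.0633).

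Of 8 tested RGS proteins, which switch G proteins off, 2 fell and none rose, with a median of -0.44. Rgs16 fell by 1.98 (SE 0.33, limma adjusted p = 0.00798), at 25.15 to 81.23 RPM with T3 and 107.47 to 264.91 RPM untreated, so that all 6 T3 libraries lay below all untreated ones, as was the case for 0.529% of genes. Rgs14 fell by 0.96 (SE 0.19, limma adjusted p = 0.0175) from low levels, at 0 to 1.68 RPM with T3 and 0.26 to 3.57 RPM untreated. It reached 1 RPM in 4 untreated libraries and 1 T3 library, so it met the filter through the untreated arm, where it is high. Its call in limma is thus no support for a difference. The call of Rgs14 was lost without the C17.2b 12 h, C17.2a 6 h or C17.2a 12 h pair (-1.01 to -0.93, limma adjusted p = 0.0564 to 0.0697).

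Of 40 tested kinases and small GTPases downstream of Cxcr4, 3 rose and 1 fell, with a median of -0.02. Elmo2, which works with Dock proteins to activate Rac, rose by 1.66 (SE 0.13, limma adjusted p = 0.000249), at 22.22 to 43.89 RPM with T3 and 5.95 to 12.75 RPM untreated. Pik3cd, a catalytic subunit of phosphoinositide 3-kinase, rose by 0.96 (SE 0.14, limma adjusted p = 0.00476), at 6.06 to 13 RPM with T3 and 2.71 to 5.21 RPM untreated. Tiam1, a Rac exchange factor, rose by 0.76 (SE 0.18, limma adjusted p = 0.0370), and the kinase gene Map2k1 fell by 0.40 (SE 0.09, limma adjusted p = 0.0289). Both of these calls were lost without the C17.2b 6 h, C17.2b 12 h, C17.2a 6 h or C17.2a 12 h pair, with Tiam1 at 0.67 to 0.85 (limma adjusted p = 0.057 to 0.139). That of Map2k1 was also lost without the C17.2b 24 h pair, with a range over the 5 of -0.42 to -0.38 (limma adjusted p = 0.0793 to 0.127). Over all 12 alternatives, changes of processing among them, the call of Tiam1 was lost in 6 and that of Map2k1 in 7. Their fold changes were then 0.45 to 0.89 and -0.45 to -0.38 over the 12.

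**Figure D3:**
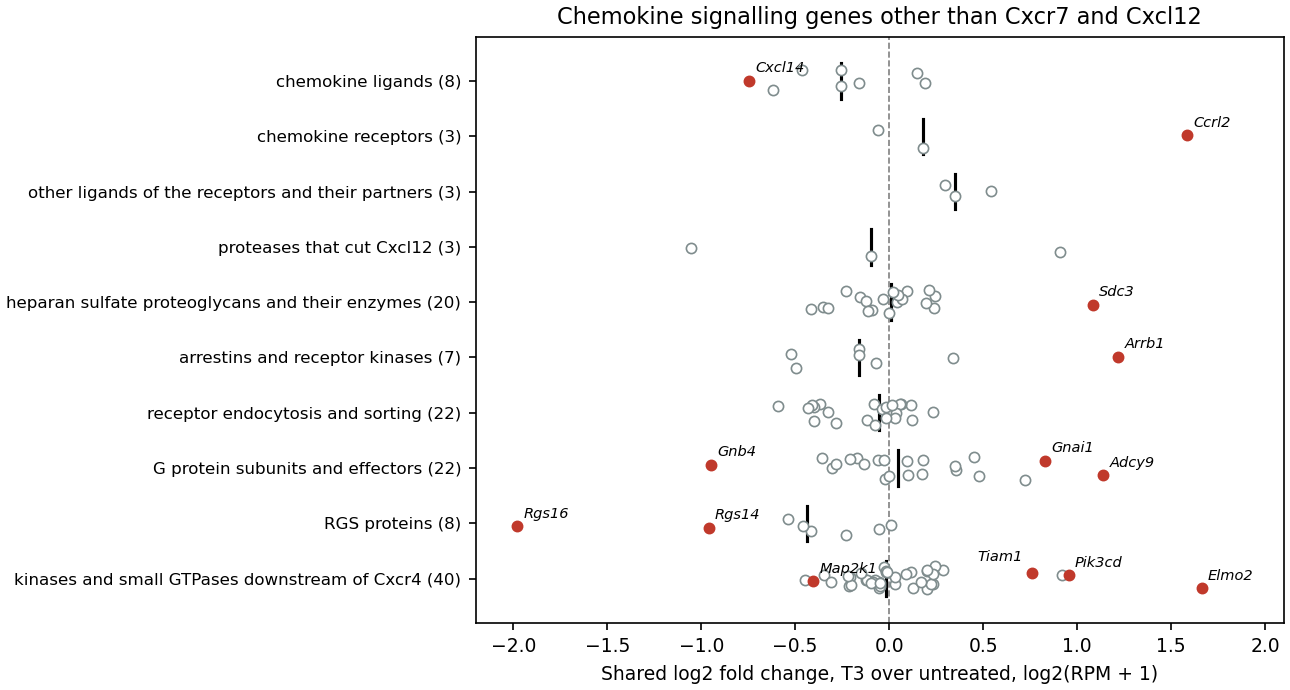
Shared log2 fold change of T3 over untreated on log2(RPM + 1) for 136 genes other than Cxcr7 and Cxcl12, 1 row per list with the number tested in parentheses. Each point is 1 gene, filled red where the limma adjusted p was under 0.05, and the bar is the list's median: the 13 filled points run from Rgs16 at -1.98 to Elmo2 at 1.66, and most others lie near 0.

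The genes whose pattern was most like that of Cxcr7 were found by Pearson's correlation of log2(RPM + 1) over the 12 libraries, among 8148 genes with a mean of at least 5 RPM. They were Bnip3 (r = 0.97), Arrdc3 (r = 0.96), Ero1l (r = 0.96), Epas1 (r = 0.96) and Hif1a (r = 0.95). All 5 were higher in every T3 library than in every untreated one, as were 1.47% of all genes. They were picked for likeness to Cxcr7, which has that step itself, so nothing is read from it. The 12 points share the step, so r is a description only. Epas1, a transcription factor, was at 48.41 to 193.44 RPM with T3 and 1.89 to 8.47 RPM untreated, and Arrdc3, an arrestin-domain protein, at 56.82 to 149.58 RPM with T3 and 10.75 to 19.94 RPM untreated. The step was smaller for Hif1a, a transcription factor subunit, at 111.62 to 196.33 RPM with T3 and 73.33 to 96.12 RPM untreated.

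For Cxcl12 the same rule gave Ube2z (r = 0.97), Acadl, Ccnt2, Rev3l and Adam9 (r = 0.96 each). The points of these genes share the 24 h libraries, and for all 5 the ranges with and without T3 overlapped. Ube2z, a ubiquitin-conjugating enzyme, was at 23.73 to 114.27 RPM with T3 and 29.12 to 74.74 RPM untreated, and Adam9, a membrane metalloprotease, at 30.22 to 75.38 RPM with T3 and 31.32 to 51.14 RPM untreated. No gene was named in both sets of 5.

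**Figure D4:**
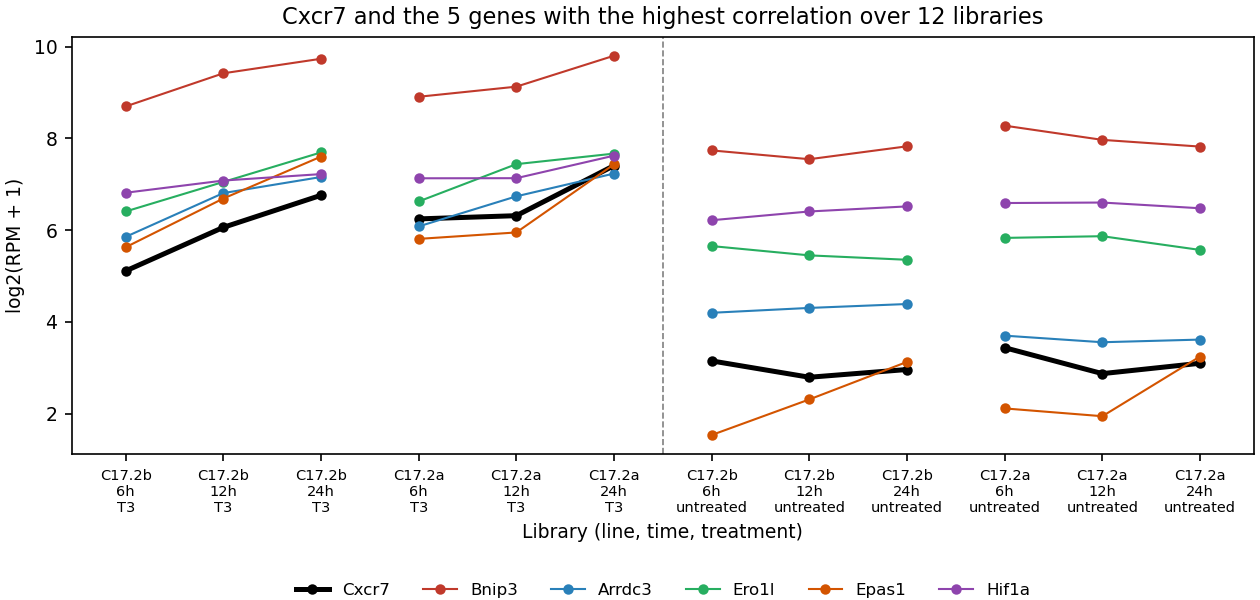
Level as log2(RPM + 1) of Cxcr7 (thick black) and the 5 genes with the highest correlation with it, in the 6 T3 libraries (left of the dashed line) and the 6 untreated libraries (right). Each point is 1 library and lines join the times of 1 line and treatment: all 6 genes are higher on the left, with the step of Hif1a (r = 0.95) smaller than that of Cxcr7.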

How the data were processed

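Libraries of polyA RNA were reverse-transcribed, per the labels' protocols. The authors deposited 1 table of RPM for 12 libraries, a unit read from the values. The submitters' processing notes name mm9, and the aligner and the rule that gave tags to genes are not given in the sources used here, so a paralogue, overlapping or antisense gene could share tags. Low values (up to 1 RPM) were whole multiples of a step, the worth of 1 tag, in 88.6% to 93.1% of cases within 0.0055 RPM. The implied depth comes from this step, and since the rest were fractions no count test was run. N/A was read as 0. Intervals from implied tags (Poisson for levels, exact conditional binomial for ratios, 95%) are approximate and cover counting error only.

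Tests used limma 3.58.1 in R 4.3.3 on log2(RPM + 1) with a trend and Benjamini-Hochberg adjustment at 0.05 over genes with at least 1 RPM in 3 libraries of the fit. The pair of line and time was the block for T3 contrasts, time for the untreated lines, and line for the untreated times. P-values of the T3 contrasts measure the spread between pairs, including real differences of response. Those of the untreated contrasts measure what line and time leave over among single untreated libraries. The fit of the shared T3 response was checked on simulated data, and the fits of the other contrasts were not. In each list the genes past 0.05 were named, or the highest and lowest where none passed. The members and lists were chosen with earlier results of these data known. Both measured members passed the filter. Promoters are from RefSeq, and both members matched. Alternatives were other pseudocounts, median-ratio scaling, other filters, no block, a fit per line, the untreated lines within a fit of 12 libraries, and leaving out 1 pair or library.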

Additional observations from a re-analysis of the deposited data

How the results depend on the processing

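The T3 difference of Cxcr7 was 2.77 to 3.53 (log2) and that of Cxcl12 0.05 to 0.18 over all alternatives. Of 170 values of 14 results on Cxcr7 and Cxcl12, 156 were kept, 11 changed sign and 3 newly passed, among them that of Cxcr7 in the fit with a lone 24 h pair. For tested results, kept means the same direction and side of the threshold. For the T3 differences, which had no test, it means within the SD over pairs of the main value (0.81 for Cxcr7 and 0.26 for Cxcl12). With median-ratio scaling the line difference of the T3 response of Cxcl12 was -0.0972 and its 12 h minus 6 h difference -0.0674, both turned, and the untreated 24 h minus 6 h difference of Cxcr7 was -0.66 and passed. This scaling shifts the median gene by -0.12, -0.07 and -0.40 in these contrasts, in that order. What lies behind the shifts was not tested.

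Leaving out 1 pair or library at a time gave the following ranges. The line difference of the T3 response was -0.91 to 0.0128 for Cxcr7 and -0.0961 to 0.23 for Cxcl12. The 24 h minus 6 h difference was 1.25 to 2.09 for Cxcr7, and the 12 h minus 6 h difference -0.0805 to 0.0854 for Cxcl12. In untreated cells Cxcl12 was at -0.31 to 0.0458 between lines, 0.29 to 0.82 between 24 h and 6 h and -0.16 to 0.37 between 12 h and 6 h. Genes passing numbered 319 to 1554 for the shared T3 response, 39 to 1178 for C17.2b, 32 to 462 for C17.2a and 5 to 29 in the chemokine lists. They numbered 0 to 2 for the line difference, 0 to 3342 and 0 to 1 for the 24 h and 12 h differences from 6 h, 412 to 1178 for the untreated lines, and 3940 to 5864 and 0 to 148 for untreated 24 h and 12 h against 6 h.

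No label gives replicate numbers, and the pairing is by line and time. Without the pair as a block, the shared T3 response had 240 genes, the chemokine lists 6 and the 24 h minus 6 h difference 1, and without time as a block the untreated lines had 1. With all 12 libraries the untreated lines had 362, and fitted alone C17.2b had 1086 and C17.2a 12. With 50 to 150 implied tags of Cxcr7 in an untreated library and 67 to 146 of Cxcl12, small differences lie within counting error. Each group had 1 library, so the spread within a line, time and treatment is unknown.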

Other observations

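In untreated cells, limma called 22 of 131 tested chemokine list genes between the lines (8 higher and 14 lower in C17.2b, against 2.93% and 5.92% of all genes). The count over all genes, 902, was 439 without the untreated C17.2b 6 h library and 412 without the untreated C17.2a 6 h library, and the list count was not run without them. Between 24 h and 6 h, 72 of 131 list genes passed, near the background of 56.1%, so nothing is read from that count.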
